A study of Mus musculus with 15 samples.

Results

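The amino acid stress response and the tRNA synthetases were followed in mouse dental mesenchymal cells (mDMCs) as 37 listed genes, chosen by name for their roles in this response and with earlier results of these data known. Of these, 36 had a row among the 12089 transcripts of the expression table, and Ppp1r15a, an eIF2 phosphatase subunit, had none. Sequenced were 3 libraries of freshly isolated cells (0 h), 2 libraries after 12 h and 3 libraries each after 24 h, 36 h and 48 h of culture with FBS, and 1 library of dental mesenchymal tissue. The mDMCs were single cells released with trypsin from the first molar germs of E14.5 ICR mouse embryos after the epithelium had been removed with dispase, and all cultures shared this isolation and medium. The labels do not say whether replicates were separate litters or cultures, so p-values measure the spread between these libraries, which may be technical.

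When amino acids run short, uncharged tRNA activates the kinase GCN2, which phosphorylates the translation initiation factor eIF2. The kinase PERK does the same when unfolded proteins accumulate in the endoplasmic reticulum. General protein synthesis then slows, while translation of the transcription factor ATF4 rises. ATF4 pairs with C/EBP proteins on composite promoter elements and switches on genes that make, import and charge amino acids, along with regulators that damp the response or lead to cell death. Cells brought from tissue into medium meet a new supply of amino acids, serum and attachment at once.

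The composite element was searched as TGATGNAA on both strands in promoters from RefSeq (GRCm38.p6), from 250 bases before to 50 bases after each annotated start. A promoter entry existed for 30 of the 36 genes, and 11 of them (36.7%) held a match, with 12 matches in all. Over all 27025 genes with an entry, 1219 (4.51%) held one. The members were chosen for their roles in the amino acid stress response, so their share is a description and no test. The 27025 genes were not limited to those with a row in the expression table. The cAMP response element TGACGTCA, its own reverse complement, was found in 0 of the 30 genes and in 2.03% of all genes. The stretches of 30 bases around 8 of the matches are given, because these genes cover members with a match that rose in culture and both that fell. Each is written 5′ to 3′ on the strand of its gene, with the match in capitals, which is the reverse complement of TGATGNAA where the element points the other way.
Asns: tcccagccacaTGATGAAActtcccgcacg
Chac1: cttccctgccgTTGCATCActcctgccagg
Trib3: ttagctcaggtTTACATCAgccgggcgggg
Nupr1: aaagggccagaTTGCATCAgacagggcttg
Gars: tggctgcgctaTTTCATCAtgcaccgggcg
Tars: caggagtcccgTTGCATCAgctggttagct
Pycr1: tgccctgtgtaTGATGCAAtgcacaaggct
Vldlr: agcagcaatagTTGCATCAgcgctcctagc

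These lie at chr6:7693214-7693243 (minus strand) for Asns, chr2:119351038-119351067 (plus) for Chac1, chr2:152344028-152344057 (minus) for Trib3 and chr7:126625562-126625591 (minus) for Nupr1. Those of Gars, Tars, Pycr1 and Vldlr lie at chr6:55037960-55037989 (plus), chr15:11399655-11399684 (minus), chr11:120643833-120643862 (minus) and chr19:27216809-27216838 (plus). The first base of the match stood at -23 from the start in Asns, -193 in Chac1, -110 in Nupr1, -30 in Gars, -15 in Tars, -103 in Pycr1 and -200 in Vldlr. In Trib3 it stood after the start, at 15. The matches of Asns, Nupr1 and Vldlr lie within annotated exons, and those of Nupr1 and Vldlr within the span of the transcripts in the table. The remaining members with a match were Aars, which held 2, and Iars and Yars. Chac1 and Pycr1 are shown with more of the promoter, since both carry the element before the start and their levels went opposite ways in culture. The windows are chr2:119350993-119351112 (plus) and chr11:120643788-120643907 (minus), and neither meets an annotated exon.
Chac1: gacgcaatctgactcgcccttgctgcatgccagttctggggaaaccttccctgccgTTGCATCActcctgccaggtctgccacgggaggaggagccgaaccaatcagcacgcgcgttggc
Pycr1: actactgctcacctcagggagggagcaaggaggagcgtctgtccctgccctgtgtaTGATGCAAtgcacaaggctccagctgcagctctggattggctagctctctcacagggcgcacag

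The letters do not show that a factor binds there, and the starts used by RefSeq need not be those used in mDMCs.

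The table held whole-number scores that had been brought to one distribution in all 15 libraries, with a median of 721, so the depth of each library is unknown and a score gives a rank rather than a number of reads. All 11 markers of dental mesenchyme had rows, and their summed score was 84715 to 100722 at 0 h, 67055 to 80769 at 12 h, 54288 to 98975 at 24 h, 48443 to 51553 at 36 h and 49857 to 59604 at 48 h. Prrx1 was the largest part of this sum in every library and scored 70675 in 24 h replicate 3, which had the highest sum at 24 h. The markers did not move together. From 0 h to 48 h mean scores fell for Pdgfra (16450 to 2546) and Pax9 (4619 to 899.3), but not for Prrx2 (2155 to 2527). The freshly isolated cells also held RNA of other cell types. Red cell genes (5 of 6 with a row) summed to 79096 to 131256 at 0 h and 41 to 702 in culture, and endothelial genes (6 of 6) to 7975 to 9452 and 396 to 851. Epithelial genes (7 of 8) summed to 1450 to 13358 at 0 h and 87 to 2683 in culture, and macrophage genes (5 of 7) to 908 to 1270 and 452 to 1212. Myog, the only skeletal muscle marker with a row, scored 31 to 291 at 0 h and 76 to 1497 in culture, and the glial markers had no row. None of these markers was at 0 in all libraries, and 0 h replicate 1 had the highest epithelial sum. The macrophage sums at 24, 36 and 48 h (550 to 871, 604 to 744 and 452 to 781) lay below those at 0 h. So did the epithelial sums at 36 and 48 h (87 to 600 and 357 to 1205). Red cell and endothelial RNA therefore moved with every comparison against 0 h, and the macrophage and epithelial sums moved with these later ones. The part of these cell types in the results was not tested. In bulk RNA, fewer cells of a type and less RNA per cell cannot be told apart.

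The members rose more often than they fell. At 12 h, 23 of 36 members were called higher than at 0 h and 2 lower, by limma's adjusted p-value below 0.05, against 29.9% and 28.3% of all 12079 transcripts tested. At 24 h the counts were 29 higher and 2 lower, against 35.0% and 31.8%. At 36 h they were 25 and 2, against 36.0% and 34.0%, and at 48 h they were 25 and 4, against 37.1% and 34.0%. The median log2 difference of the members was 0.55, 0.78, 0.54 and 0.55 at these times, while that of all transcripts tested lay between 0.02 and 0.03. Called and more than 2-fold higher were 9, 12, 11 and 12 members at 12, 24, 36 and 48 h, as were 1462, 1666, 1871 and 1949 of the 12079 transcripts. Called and more than 2-fold lower were 1, 1, 0 and 3 members, as were 1444, 1707, 1874 and 1914 transcripts. All 36 members passed the filter on low values (2 or more libraries with 1 ppm or more of their summed score). Trib3 and Nupr1 were below that level in all 3 libraries at 0 h and Chac1 in 2 of them, so these members passed only through cultured libraries, where they are high, and had to differ; their calls are part of the counts but no support for them. These 4 comparisons share the same 0 h libraries.

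**Figure D1:**
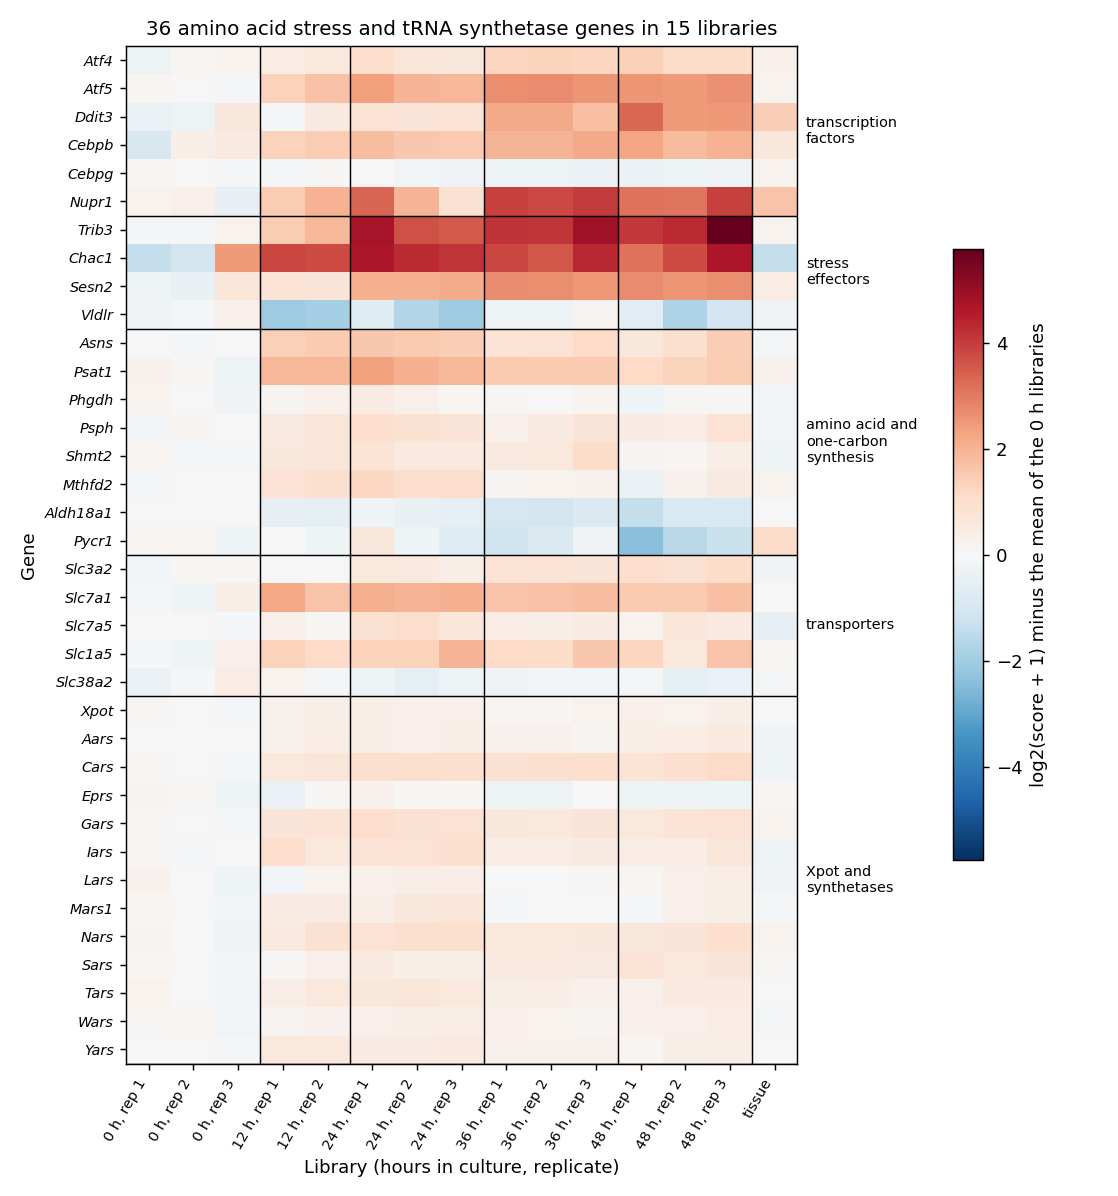
Each row is a member, grouped by role, and each column a library. Colour gives log2(score + 1) minus the mean of the 3 libraries at 0 h, red for higher and blue for lower. The strongest red stands in the rows of Trib3, Chac1 and Nupr1, and the rows of Vldlr, Aldh18a1 and Pycr1 turn blue in culture.

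Of the 6 transcription factors of the response, 5 were called higher and 1, Cebpg, lower at 48 h, where 37.1% and 34.0% of all transcripts tested were. Among the 5, Nupr1 passed the filter only through cultured libraries, so its call is no support for this count. Atf4, whose product drives the amino acid response, scored 3468, 4459 and 4750 at 0 h, 5665 and 6307 at 12 h, 8508, 6689 and 6559 at 24 h, 9788, 10075 and 9788 at 36 h, then 10701, 8724 and 8724 at 48 h. All cultured libraries lay above all freshly isolated ones, and the difference at 48 h was 2.23-fold (log2 1.16, SE 0.13, adjusted p = 5.16e-06). Atf5, a relative of Atf4 that is also under translational control, scored 249 to 293 at 0 h, 672 and 872 at 12 h and 1459 to 1695 at 48 h. It had reached 1.51 on the log2 scale by 12 h (SE 0.15, adjusted p = 2.81e-06) and 2.54 by 48 h (SE 0.13, adjusted p = 4.25e-09).

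Ddit3 encodes CHOP, a C/EBP family factor tied to cell death under lasting stress, and it moved late. Its scores were 243, 255 and 492 at 0 h, 286 and 445 at 12 h, 544, 517 and 545 at 24 h, 1419, 1423 and 1056 at 36 h, then 3118, 1734 and 1791 at 48 h. The 12 h libraries lay within the range at 0 h, whereas the lowest library at 48 h was above the highest at 36 h. The log2 difference from 0 h was 0.19 at 12 h (adjusted p = 0.630), 0.77 at 24 h (adjusted p = 0.0271), 2.04 at 36 h (adjusted p = 2.81e-05) and 2.77 at 48 h (SE 0.28, adjusted p = 1.68e-06). The Ddit3 transcript shares 68 bases (7.64% of its length) with Mars1 on the opposite strand, and the sources used here do not say whether reads were assigned by strand.

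Cebpb, a C/EBP factor of stress and inflammation, scored 253, 617 and 714 at 0 h, 1210 and 1328 at 12 h, then 2326, 1695 and 1935 at 48 h. Its groups at 0 h and in culture did not overlap, and it rose by 2.03 at 48 h (SE 0.29, adjusted p = 3.29e-05). It shares 312 bases (20.7%) with Tmem189 on the opposite strand. Nupr1, a small stress-induced chromatin protein, scored only 15, 16 and 9 at 0 h, 38 and 55 at 12 h, 143, 54 and 25 at 24 h, 216, 195 and 226 at 36 h, then 120, 116 and 214 at 48 h. Its log2 difference from 0 h was 3.93 at 36 h and 3.38 at 48 h, but the 24 h libraries were widely spread and the 0 h libraries lay below the filter level, so that Nupr1 was tested only because of its cultured libraries. Cebpg, a partner of ATF4 on the composite element, went the other way by a small step. It scored 1007 to 1147 at 0 h and 838 to 920 at 48 h, a fall by 0.28 on the log2 scale (SE 0.08, adjusted p = 0.00871).

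Of the 4 feedback and stress effectors, 3 were called higher and 1, Vldlr, lower at 48 h, beside the same 37.1% and 34.0%. Of those called higher, Trib3 and Chac1 passed the filter only through cultured libraries and had to differ, so their calls are no support for this count. Trib3, a pseudokinase that binds ATF4 and damps it, scored 3, 3 and 4 at 0 h, 11 and 15 at 12 h, 114, 54 and 49 at 24 h, 77, 74 and 122 at 36 h, then 71, 85 and 233 at 48 h. Every cultured library was above every freshly isolated one, and the log2 difference was 1.69 at 12 h (SE 0.49) and 4.71 at 48 h (SE 0.44). Trib3 was below the filter level at 0 h and at 12 h and was tested only because of later libraries, and at such low scores the log2(score + 1) scale understates the change. Chac1, which degrades glutathione, scored 3, 4 and 56 at 0 h, 150 and 139 at 12 h, 265, 202 and 181 at 24 h, 149, 124 and 210 at 36 h, then 91, 141 and 262 at 48 h. It had reached its level in culture by 12 h, at a log2 difference of 3.80 (SE 0.85), against 3.85 at 48 h (SE 0.76). At 0 h Chac1 reached the filter level only in replicate 3, and it was tested only because of its cultured libraries. The size rested on the 0 h libraries: it was 5.08 without 0 h replicate 3 and 3.16 without 0 h replicate 1.

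Sesn2 encodes a sestrin that senses leucine and holds back mTORC1. It scored 289, 256 and 567 at 0 h, 604 and 584 at 12 h, 1431, 1457 and 1515 at 24 h, 2275, 2239 and 1950 at 36 h, then 2293, 2001 and 2239 at 48 h. The rise was 0.77 at 12 h (adjusted p = 0.0149) and 2.64 at 48 h (SE 0.22, adjusted p = 2.28e-07). The other sestrins fell: Sesn1 by 1.68 at 48 h (adjusted p = 2.07e-07) and Sesn3 by 1.78 (adjusted p = 6.12e-07). Sesn1 went from 787 to 986 at 0 h to 248 to 326 at 48 h, and Sesn3 from 1120 to 1672 to 343 to 418. Vldlr, a lipoprotein receptor and known ATF4 target, fell at once and stood near its starting level at 36 h. It scored 876, 913 and 1228 at 0 h, 241 and 252 at 12 h, 618, 311 and 242 at 24 h, 813, 822 and 1116 at 36 h, then 657, 285 and 467 at 48 h. The log2 difference was -2.01 at 12 h (SE 0.37, adjusted p = 0.000489), -0.13 at 36 h (adjusted p = 0.736) and -1.16 at 48 h (adjusted p = 0.00685). The row of Vldlr is a transcript annotated as a retained intron, and which isoforms its score covers is not stated.

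**Figure D2:**
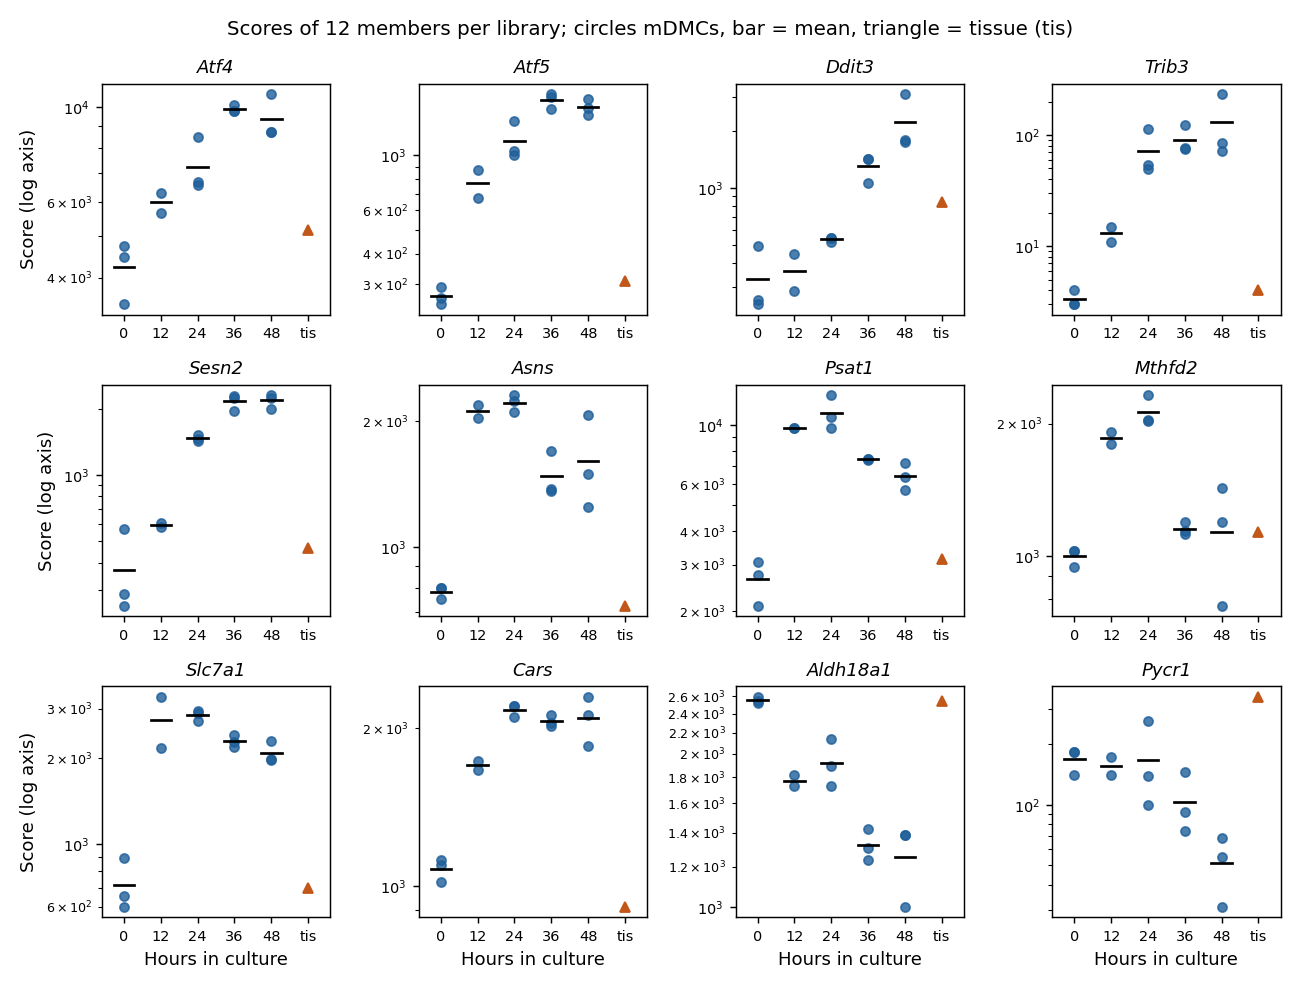
Points give the score of each library on log axes for 12 members, against hours in culture, with bars at the group means and a triangle for the tissue library (tis). Ddit3 climbs from 243 to 492 at 0 h to 1734 to 3118 at 48 h, whereas Mthfd2 is highest at 24 h and Pycr1 is lowest at 48 h.

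Of the 8 enzymes of amino acid and one-carbon synthesis, 3 were called higher and 2 lower at 48 h, near the 37.1% and 34.0% of all transcripts tested. Asns, the asparagine synthetase and a classic ATF4 target, scored 797, 750 and 799 at 0 h, 2043 and 2192 at 12 h, 2307, 2236 and 2105 at 24 h, 1363, 1380 and 1696 at 36 h, then 1248, 1499 and 2075 at 48 h. It was 2.71-fold higher at 12 h (log2 1.44, SE 0.17, adjusted p = 1.10e-05) and 2.01-fold higher at 48 h (log2 1.01, adjusted p = 4.67e-05). In the serine pathway, the second enzyme, Psat1, scored 3070, 2740 and 2104 at 0 h, 9770 in both libraries at 12 h, 12916, 10682 and 9770 at 24 h, then 5704, 6397 and 7185 at 48 h. It rose by 1.91 at 12 h (SE 0.15, adjusted p = 4.82e-07), 2.08 at 24 h (adjusted p = 4.56e-08) and 1.30 at 48 h (adjusted p = 2.45e-06). Equal scores within a group come from the rank scale and understate the spread; 15 members had such a tie.

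Phgdh and Psph carry the first and last steps of serine synthesis. Phgdh scored 5434, 4618 and 4066 at 0 h, 5224 and 5678 at 12 h, then 3971, 4933 and 4933 at 48 h, and it was called at no time point, with 0.29 at 24 h (adjusted p = 0.0527) and -0.03 at 48 h (adjusted p = 0.861). An annotated pseudogene, Phgdh-ps1, could share its reads. Psph scored 200, 245 and 217 at 0 h, then 309, 297 and 398 at 48 h, with a rise of 0.87 at 24 h (adjusted p = 0.000180) and 0.59 at 48 h (adjusted p = 0.00296). The groups of Phgdh overlapped throughout, whereas every cultured library of Psph was above every one at 0 h.

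The mitochondrial one-carbon enzymes rose early and were not called at 48 h. Mthfd2 scored 945, 1028 and 1025 at 0 h, 1795 and 1916 at 12 h, 2320, 2032 and 2041 at 24 h, 1125, 1141 and 1194 at 36 h, then 771, 1194 and 1432 at 48 h. Its difference was 1.09 at 24 h (SE 0.17, adjusted p = 7.30e-05) but 0.13 at 48 h (adjusted p = 0.480), where the libraries lay on both sides of those at 0 h. Leaving out 48 h replicate 1 made this 0.39 (adjusted p = 0.00333), and leaving out 48 h replicate 3 made it -0.058 (adjusted p = 0.742). Shmt2, which passes a carbon from serine to folate, scored 1186 to 1310 at 0 h, 1950 and 1964 at 12 h, 1800 to 2587 at 36 h and 1313 to 1596 at 48 h. It was 0.75 higher at 36 h (adjusted p = 0.000181) and 0.21 higher at 48 h (adjusted p = 0.155).

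Both genes of proline synthesis among the members fell. Aldh18a1, which starts the path from glutamate, scored 2544, 2523 and 2590 at 0 h, 1819 and 1725 at 12 h, 2137, 1896 and 1729 at 24 h, 1305, 1237 and 1420 at 36 h, then 999, 1382 and 1382 at 48 h. All cultured libraries were below the range at 0 h, and the difference grew from -0.53 at 12 h (adjusted p = 0.00462) to -1.04 at 48 h (SE 0.12, adjusted p = 5.23e-06). Pycr1, which completes proline, scored 182, 182 and 140 at 0 h, 172 and 141 at 12 h, 262, 139 and 100 at 24 h, 74, 92 and 145 at 36 h, then 31, 55 and 68 at 48 h. It was called lower at 48 h (log2 -1.75, SE 0.36, adjusted p = 0.000810) and not at 36 h (log2 -0.74, adjusted p = 0.0876).

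Of the 5 amino acid transporters, 4 were called higher and 0 lower at 48 h, where 37.1% and 34.0% of all transcripts tested were. Slc7a1, the carrier of arginine and lysine, scored 655, 599 and 894 at 0 h, 3299 and 2184 at 12 h, 2940, 2705 and 2882 at 24 h, then 1998, 1979 and 2313 at 48 h. It was 3.80-fold higher at 12 h (log2 1.93, SE 0.18, adjusted p = 1.44e-06) and 2.96-fold higher at 48 h (log2 1.57, adjusted p = 1.45e-06). Slc1a5, a glutamine carrier, scored 420 to 611 at 0 h, 1233 and 1077 at 12 h, then 1188, 767 and 1544 at 48 h, a rise of 1.18 (SE 0.25, adjusted p = 0.000889). These carriers were already up at 12 h.

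The heavy chain Slc3a2 and its light chain Slc7a5, which together import leucine and other large amino acids, were not called at 12 h. Slc3a2 scored 1586, 1836 and 1928 at 0 h, 1757 and 1781 at 12 h, 2731, 2605 and 2320 at 24 h, then 3539, 3305 and 3724 at 48 h. Its difference went from -0.01 at 12 h (adjusted p = 0.960) to 0.98 at 48 h (SE 0.09, adjusted p = 5.15e-07). Slc7a5 scored 1245 to 1311 at 0 h, 1557 and 1357 at 12 h, 2360, 2602 and 2072 at 24 h, then 1497, 2089 and 1915 at 48 h, with a rise of 0.86 at 24 h (adjusted p = 2.84e-05) and 0.50 at 48 h (adjusted p = 0.00199). Slc38a2, a carrier of small neutral amino acids that is induced by amino acid lack in many cells, was called at no time point. It scored 5462, 6679 and 9380 at 0 h, then 6547, 4680 and 5411 at 48 h, and its difference at 48 h was -0.35 (SE 0.18, adjusted p = 0.0936). It passed the threshold without 0 h replicate 1, at -0.53 (adjusted p = 0.0148), and without 48 h replicate 1, at -0.47 (adjusted p = 0.0404).

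Xpot, which exports tRNA from the nucleus, and the 12 cytosolic synthetases, which join amino acids to their tRNAs, had small differences. At 12 h and at 36 h, 9 of these 13 genes were called higher and 0 lower, against 29.9% and 36.0% of all transcripts called higher at these times and 28.3% and 34.0% called lower. At 24 h, 12 were called higher and 0 lower, against 35.0% and 31.8%, with a median log2 difference of 0.50 and a highest of 1.01. The counts at 48 h were 10 higher and 0 lower, against 37.1% and 34.0%, with a median of 0.46. Cars, for cysteine, scored 1121, 1097 and 1021 at 0 h, 1668 and 1730 at 12 h, 2203, 2202 and 2096 at 24 h, then 1852, 2122 and 2293 at 48 h. It alone reached 2-fold at 24 h (2.01-fold, SE 0.08 on the log2 scale, adjusted p = 2.28e-07).

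Gars, for glycine, scored 3133, 3040 and 2752 at 0 h, 4982 and 5179 at 12 h, then 4495, 5134 and 5244 at 48 h, a rise of 0.74 (adjusted p = 3.61e-06). Nars, for asparagine, scored 4366, 4051 and 3452 at 0 h, 7095, 7518 and 7458 at 24 h, then 6236, 6514 and 7631 at 48 h, a rise of 0.78 (adjusted p = 2.68e-05). In both genes the lowest cultured library stood above the highest at 0 h. Sars, for serine, kept climbing, from 3514 to 4274 at 0 h to 4110 and 4702 at 12 h and 5978 to 6628 at 48 h. Its difference was 0.17 at 12 h (adjusted p = 0.155) and 0.71 at 48 h (SE 0.09, adjusted p = 1.24e-05).

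Iars, for isoleucine, scored 2056 to 2313 at 0 h, 4494 and 3325 at 12 h and 2911 to 3522 at 48 h, with rises of 0.82 (adjusted p = 8.27e-05) and 0.51 (adjusted p = 0.000850). Tars, for threonine, scored 2261 to 2925 at 0 h and 3092 to 3788 at 48 h and rose by 0.47 (adjusted p = 0.00152). Aars, for alanine, scored 4757 to 4927 and 6417 to 7058 and rose by 0.46 (adjusted p = 5.88e-05), in a row that is a short transcript of 3 exons and 709 bases. These genes had no overlap between 0 h and 48 h.

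Smaller rises at 48 h were those of Wars, for tryptophan (0.34, adjusted p = 0.00231), Xpot (0.30, adjusted p = 0.00158) and Yars, for tyrosine (0.28, adjusted p = 0.00407). Yars was highest at 12 h, where both libraries scored 3634 against 2329 to 2455 at 0 h (log2 0.59, adjusted p = 5.74e-05). Mars1, for methionine, rose at 24 h (0.57, adjusted p = 0.000665), and so did Lars, for leucine (0.36, adjusted p = 0.0212). At 48 h they stood at 0.18 (adjusted p = 0.188) and 0.27 (adjusted p = 0.0627). Both passed the threshold without 48 h replicate 1, Mars1 at 0.30 (adjusted p = 0.0183) and Lars at 0.35 (adjusted p = 0.0374), and Lars also did so without 0 h replicate 1, at 0.40 (adjusted p = 0.0107). Eprs, the joint glutamate and proline enzyme, was called at no time point. Its libraries scored 10453, 9603 and 7913 at 0 h, 11082, 9804 and 9603 at 24 h, then 7596, 7596 and 7913 at 48 h, and the difference at 48 h was -0.27 (SE 0.13, adjusted p = 0.0933). Without 0 h replicate 3 it was -0.38 (adjusted p = 0.0257).

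**Figure D3:**
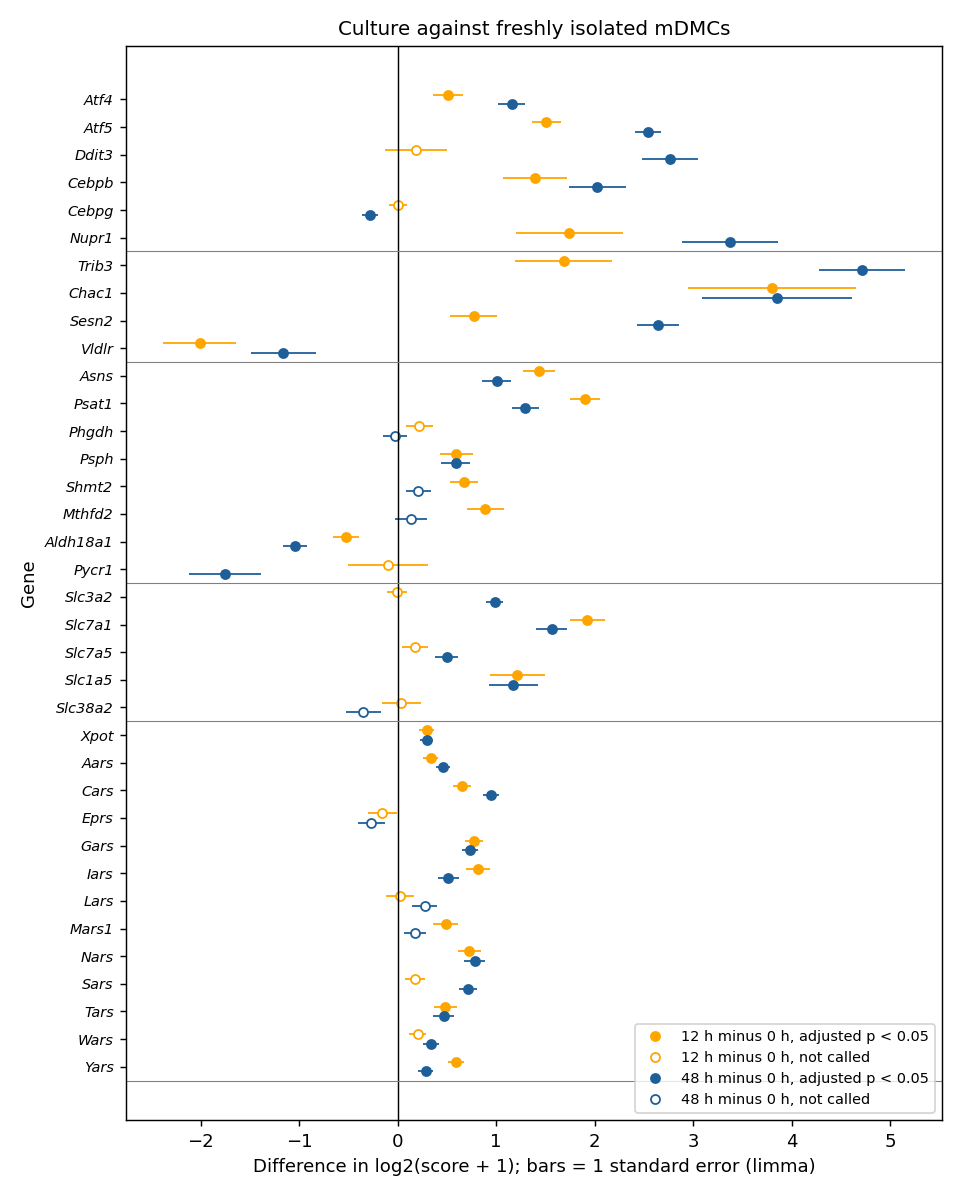
Points give the difference in log2(score + 1) from 0 h for each member at 12 h (orange) and 48 h (blue), with bars of 1 standard error. Filled points passed an adjusted p of 0.05. Transcription factors and effectors other than Cebpg lie farther right at 48 h, as with Ddit3 at 0.19 and 2.77, while Mthfd2 lies farther left, at 0.89 and 0.13.

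From 12 h to 48 h, 9 of 36 members were called higher and 7 lower, against 21.2% and 21.0% of all transcripts tested, and the median difference was -0.0021. The 9 were Atf4, Atf5, Ddit3, Nupr1, Trib3, Sesn2, Slc3a2, Cars and Sars. Trib3 was below the filter level at 12 h and was tested only because of later libraries, so its call is no support for the count. The 7 were Cebpg, Psat1, Shmt2, Mthfd2, Aldh18a1, Pycr1 and Yars. By role, 4 of 6 transcription factors were called higher and 1 lower, and 0 of 8 enzymes of amino acid and one-carbon synthesis were called higher and 5 lower; the difference between roles was not tested. Ddit3 rose by 2.58 over this interval (SE 0.31, adjusted p = 5.54e-05) and Atf4 by 0.64 (adjusted p = 0.00437). Psat1 fell by 0.61 (adjusted p = 0.00708), Mthfd2 by 0.76 (adjusted p = 0.00610) and Pycr1 by 1.65 (adjusted p = 0.00630). The count of members called lower depended on the fit, being 3 when it held only the 12 h and 48 h libraries.

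The highest mean fell at 24 h in 19 of 36 members (52.8%), against 12.7% of all transcripts tested, and at 0 h in 3 members (8.33%), against 36.7%. Of the 13 genes of tRNA export and charging, 10 had their highest mean at 24 h, as had 5 of the 8 synthesis enzymes and 3 of the 5 transporters. Of the 6 transcription factors, 4 were highest at 36 h and 1, Ddit3, at 48 h. The 48 h mean was below the 24 h mean in all 8 synthesis enzymes, in 11 of the 13 tRNA genes, in 3 of the 5 transporters, in 1 of the 4 effectors, Chac1, and in 1 of the 6 transcription factors, Cebpg. Of all transcripts tested, 6226 of 12079 were lower at 48 h than at 24 h. These positions are descriptions of means and were not tested.

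The tissue, which has no replicate, was set beside the freshly isolated mDMCs. Of 36 members, 16 lay within the range of the 0 h libraries, 11 above and 9 below, where of all 12079 transcripts tested 4627 lay within, 3587 above and 3865 below, and the median log2 difference from the 0 h mean was -0.02. More than 2-fold higher than that mean were 3 members, against 2.56% of all transcripts tested. These were Nupr1 (43, against 9 to 16), Ddit3 (842, against 243 to 492) and Pycr1 (344, against 140 to 182). Chac1 was more than 2-fold lower, as were 1.22% of all transcripts, but the tissue score of 3 equalled that of 0 h replicate 1, and the 0 h mean rested on the 56 of replicate 3. Trib3 scored 4 in the tissue and Asns 725, close to the 3 to 4 and 750 to 799 at 0 h. Ddit3 in the tissue was above every library at 0, 12 and 24 h and below every library at 36 and 48 h.

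Replicates of a group were not equally high across the members. At 48 h, replicate 3 had the highest score of its group in 28 of 36 members (77.8%), against 29.7% of all transcripts tested, and the lowest in 1. Replicate 1 had the lowest in 21 members (58.3%), against 40.1%, among them Asns, Psat1, Mthfd2, Pycr1 and Chac1, yet it held the highest Ddit3 and Atf4 scores. At 24 h, replicate 1 had the highest score in 24 members (66.7%), against 35.6%, and at 36 h replicate 3 did so in 24, against 43.5%. At 12 h, replicate 2 was highest or tied in 27 members (75.0%), against 59.9%. At 0 h, replicate 1 was highest in 18 of 36 members, against 38.7%, and replicate 3 lowest in 19 (52.8%), against 45.9%, although replicate 3 scored highest in Ddit3, Chac1, Sesn2, Slc7a1 and Slc38a2. Ties count for each library that shares the score. Libraries 1 and 2 at 36 h were the closest pair of the same group, at 0.288 for the root mean square of their log2 differences over all transcripts, against 0.354 to 0.549 for the others, and no member differed between them by over 1.5-fold.

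Further genes of the pathway were read from lists beside the members. Each count at 48 h is to be read against the 37.1% of all transcripts tested that were called higher and the 34.0% called lower. Of 11 other cytosolic synthetases and scaffold proteins of the multi-synthetase complex, 8 were called higher and 0 lower at 48 h, with a median log2 difference of 0.41. Eef1e1 and Aimp2, both scaffold proteins, rose by 1.29 (adjusted p = 3.70e-06) and 1.01 (adjusted p = 1.55e-05), and Rars, for arginine, by 0.92 (adjusted p = 1.14e-05). Eef1e1 scored 713, 602 and 486 at 0 h, then 1272, 1486 and 1631 at 48 h. Of 17 synthetases of the mitochondria, which are encoded by separate nuclear genes, 9 were called higher and 4 lower, with a median of 0.41. Pars2, Mars2 and Yars2 rose by 1.39 (adjusted p = 7.39e-06), 1.10 (adjusted p = 2.80e-08) and 1.04 (adjusted p = 4.70e-07). The cytosolic genes thus had no called fall at 48 h, while the mitochondrial ones went both ways. At 24 h and 36 h, 1 of the 11 other cytosolic genes was called lower, as were 3 and 4 of the 17 mitochondrial ones. Of all transcripts tested, 31.8% and 34.0% were called lower at these times. The difference between the lists was not tested.

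**Figure D4:**
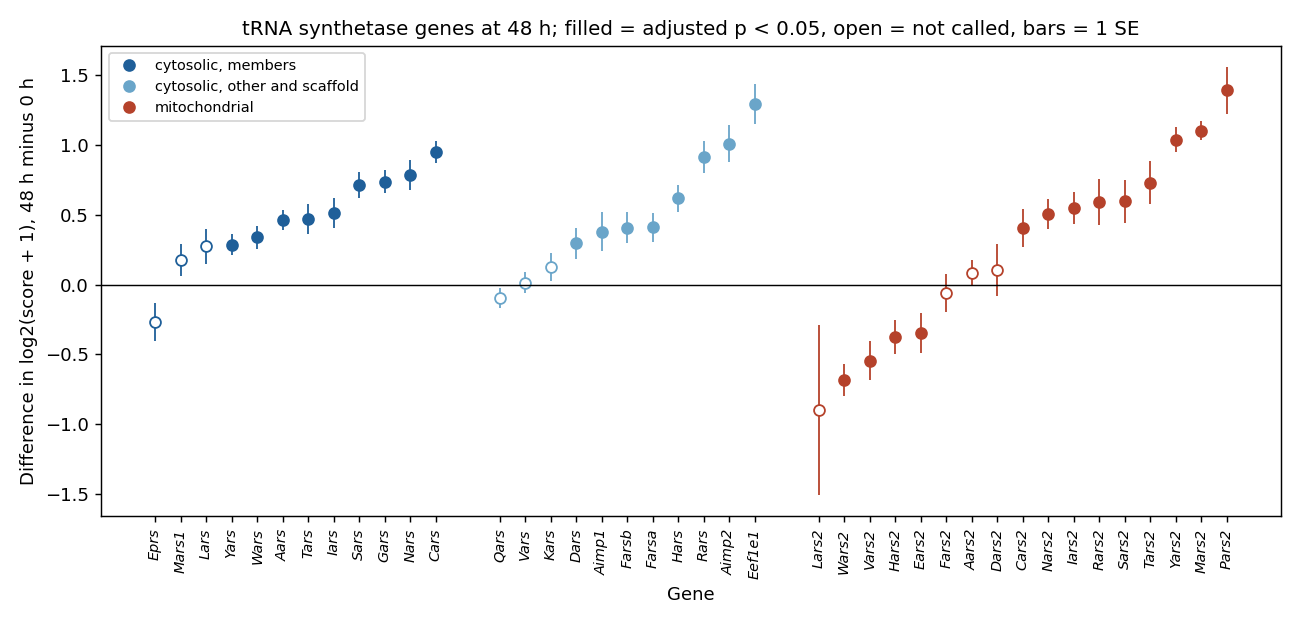
Points give the difference in log2(score + 1) between 48 h and 0 h for the 12 synthetases among the members (dark blue), 11 other cytosolic synthetases and scaffold genes (light blue) and 17 mitochondrial synthetases (red), with bars of 1 standard error. Filled points passed an adjusted p of 0.05. Cars is highest among the member synthetases at 0.95 and Eprs lowest at -0.27, and called falls stand only among the mitochondrial genes.

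Upstream, of 16 genes for eIF2, its exchange factor, its kinases and their regulators, 7 were called higher and 2 lower at 48 h, where 37.1% and 34.0% of all transcripts tested were. Impact, an inhibitor of GCN2, rose most, from 1755, 1893 and 1690 at 0 h to 7414, 5614 and 6326 at 48 h (log2 1.85, SE 0.12, adjusted p = 3.42e-08). Eif2b3 and Eif2s1, subunits of eIF2B and eIF2, rose by 1.12 (adjusted p = 2.08e-05) and 0.93 (adjusted p = 9.93e-07). Ppp1r15b, the constitutive relative of Ppp1r15a, which had no row, fell by 0.33 (adjusted p = 0.0476). These are transcript levels, and eIF2 phosphorylation was not measured.

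Among 17 further targets of ATF4, 7 were called higher and 4 lower at 48 h, where 37.1% and 34.0% of all transcripts tested were. Gdf15, a stress-induced hormone, was listed at 0, 0 and 1 at 0 h, 1 and 7 at 12 h, 131, 133 and 41 at 36 h, then 59, 84 and 126 at 48 h, and was below the filter level at 0 h and 12 h. Stc2, a secreted glycoprotein, scored 30, 10 and 11 at 0 h, 518 and 657 at 12 h, then 1438, 599 and 1013 at 48 h, a difference of 5.90 (SE 0.40), and reached the filter level in 1 library at 0 h. Atf3, an early stress factor, fell by 2.09 (adjusted p = 0.00284), from widely spread scores of 641, 1803 and 3264 at 0 h to 219, 297 and 745. Its tissue score was 3428.

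The ATF6 and XBP1 arms of the unfolded protein response do not run through eIF2. Of 16 chaperones and factors of these arms, 4 were higher, 0 lower and 12 not called at 48 h, with a median of 0.09, beside the same 37.1% and 34.0%. Those with the largest called differences were Atf6 (1.12, adjusted p = 2.06e-05), Ern1 (0.55, adjusted p = 0.0134) and Edem1 (0.53, adjusted p = 0.00107). Of 13 other amino acid transporters, 8 were higher and 3 lower. Slc1a1, a glutamate carrier, rose by 2.38 (adjusted p = 7.56e-06), Slc38a4, a carrier of neutral amino acids, by 1.67 (adjusted p = 2.39e-07) and Slc36a1, a lysosomal carrier, by 1.45 (adjusted p = 3.14e-06). Of 7 other folate genes, 4 were higher and 1 lower. That one was Tyms, the thymidylate synthase, which fell by 0.99 (adjusted p = 2.91e-06), while Mthfd1 rose by 0.60 (adjusted p = 0.00128).

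Read against the promoter letters, the 11 members with a TGATGNAA match comprised 9 called higher and 2 called lower at 48 h, the 2 being Pycr1 and Vldlr, where 37.1% and 34.0% of all transcripts tested were called higher and lower. Trib3, Nupr1 and Chac1, called higher with a match at 24 h and 48 h, passed the filter only through cultured libraries. They had to differ, so their calls are no support for these counts. Of the 19 members with a promoter entry and no match, 11 were called higher, 2 lower and 6 not called. At 24 h, where the shares of all transcripts were 35.0% and 31.8%, the counts were 9 higher, 1 lower and 1 not called with a match, and 14, 1 and 4 without. Among the lists beside the members, 5 of 13 further ATF4 targets held a match (38.5%), against 0 of 8 other cytosolic synthetases and scaffold genes and 0 of 14 mitochondrial synthetases with an entry. A match was also held by 1 of 12 eIF2 genes, 1 of 13 genes of the ATF6 and XBP1 arms and 1 of 11 other amino acid transporters. None was held by the 5 other folate genes with an entry. The share of all genes was 4.51%, so a count of 0 among so few genes says little. Atf4, Atf5, Sesn2, Psat1 and Slc7a1 rose with no match in these windows, and Pycr1 and Vldlr fell with one.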

How the data were processed

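RNA-seq of 14 libraries of mDMCs and 1 of dental mesenchymal tissue was analysed by the groups and replicate numbers of the sample labels. The authors trimmed the reads, mapped them to the mouse transcriptome (mm10, Ensembl) with bowtie and estimated expression with RSEM (version 1.1.21 in the submitters' processing notes); their own tests with DESeq2 were not used here. What the authors deposited is 1 table of whole-number expression scores, labelled cpm, which sum to 21357605 to 21365980 in each library and share one distribution. They are neither cpm nor counts, so limma on the log scale was used as planned. The count model foreseen for a table of counts was not used. A score depends on rank, so the precision is known only from replicates, and an overall change in RNA cannot be seen.

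Transcripts were matched to GENCODE genes of GRCm38 (11973 of 12089); Mars1 is listed as Mars. Scores were taken as log2(score + 1), which understates changes of low genes. The 12079 transcripts that reached 1 ppm of a library's total in 2 or more libraries entered a limma model (limma 3.58.1, R 4.3.3) that had a mean for each time point, eBayes with an intensity trend, two-sided tests and Benjamini-Hochberg adjustment over all transcripts tested, and were called at an adjusted p below 0.05. The tissue has no replicate and was left out of the fit. Fold changes are on the log2(score + 1) scale. The fit was tested on simulated data. Motifs were counted and plots drawn with Python 3.11.15, pandas 2.3.3 and matplotlib 3.10.9. Named were every member with a row and, of each further list, the 3 called genes with the largest difference at 48 h, with Sesn1, Sesn3 and Ppp1r15b as relatives. Of the genes so named, 1 is not reported here. Members and lists were chosen with earlier results of these data known. Alternatives were a pseudocount of 0.1, no filter or a stricter filter, trimmed-mean scaling, no intensity trend, a fit of the compared time points only, the replicate number as a block, the study's threshold and each replicate left out.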

Additional observations from a re-analysis of the deposited data

How the results depend on the processing

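Of the counts and medians of the members under the alternatives, 196 stayed within their limits of change; those that moved past them follow. With at least 1 ppm in all 14 libraries, which leaves out the lowest members, the median log2 difference from 0 h was 0.66 at 24 h and 0.45 at 36 h. By the study's threshold (unadjusted p below 0.05, change over 2-fold), which asks for larger changes, 9, 12, 11 and 12 members were higher than at 0 h at 12, 24, 36 and 48 h, and 1, 1, 0 and 3 lower, beside 1462 to 1949 of all 12079 transcripts over 2-fold higher and 1444 to 1914 lower by the adjusted p; from 12 h to 48 h 5 were higher and 1 lower, beside 756 and 804 transcripts. With only the compared time points in the fit, which leaves fewer libraries, 3 members were lower from 12 h to 48 h. Without 48 h replicate 3, 10 members were lower from 12 h to 48 h. Leaving out each replicate in turn gave -0.074 to 0.093 for the median from 12 h to 48 h and 0.46 to 0.64 for the median at 48 h. A fit without a 12 h replicate holds 1 library at 12 h, so counts from such fits are not given. At 48 h against 0 h, Phgdh ranged from -0.13 to 0.083 and Mthfd2 from -0.058 to 0.39. Leaving out a replicate took no member's call away at 48 h. It brought Mthfd2, Mars1, Lars and Slc38a2 past the threshold without 48 h replicate 1, Lars and Slc38a2 without 0 h replicate 1, and Eprs without 0 h replicate 3; the cause was not tested. Trimmed-mean scaling left every count of members called as it was. Between the groups tested here, same-numbered libraries did not all deviate together: at 48 h against 0 h the correlations were 0.0060, 0.051 and 0.11. All 3 pairs were above 0.1 between 24 h and 48 h (0.304, 0.201 and 0.318) and between 24 h and 36 h (0.165, 0.142 and 0.127), between which only means were set side by side, with no test. With the replicate number as a block the counts at 48 h were again 25 higher and 4 lower, beside 4521 and 4137 of all 12079 transcripts. With libraries 1 and 2 of 36 h averaged to 1, chosen after seeing the data, 23 members were higher at 36 h. Counts over all transcripts were not taken for this fit, the fits without a replicate or the fit of the compared time points only. Because the scores give no depth, no limit of detection can be stated.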
